A study of Nematostella vectensis with 17 samples.

Results

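Described here are the 3650 ChIP-seq peaks of the sea anemone Nematostella vectensis called with Brachyury antibody AB1 and not with Brachyury antibody AB2. A peak of the AB1 list was counted as AB1-only when its interval shared no base with any AB2 peak on the same scaffold. AB1-only peaks were 25.6% of the 14257 AB1 peaks, and the other 10607 AB1 peaks (74.4%) overlapped an AB2 peak and are called shared. In all, the lists of both antibodies held 30262 peaks, of which 16005 were AB2 peaks.

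Brachyury is a T-box transcription factor, a protein that binds a short DNA element through its T-box domain and regulates nearby genes. In cnidarian embryos its gene is expressed around the blastopore, the opening formed at gastrulation that becomes the mouth. In ChIP-seq, chromatin is fixed, sheared and pulled down with an antibody, and a peak is a place where the pulled-down DNA is more abundant than in the input, the sheared chromatin taken without pull-down.

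The chromatin came from whole gastrula embryos, so sites bound in some cells and sites bound weakly in many cannot be told apart. Embryos were raised at 21 °C from polyps kept at 18 °C, and their chromatin was crosslinked for 12 min in 2% formaldehyde, then sheared to 100 to 200 bp on average. AB1 and AB2 are custom antibodies raised in rabbits against bacterially made, His-tagged Nematostella Brachyury of full length, and the labels do not say which animal gave which antibody. Each antibody had 1 library, and 1 input library was listed. The 14 RNA-seq libraries of morpholino-injected embryos were not used here.

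With 1 library per antibody there was no replicate error and no test, so every difference below is a description of these lists. Read depth was unknown, because the lists hold no counts, and the precision of each peak's value is unknown as well. Each AB1 peak carried a ChIP signal, a control signal, their ratio (ChIP / Control) and a score, all the authors' own values. In all 14257 AB1 peaks the score equalled the ChIP signal minus the control signal, multiplied by a tag distribution score, within 0.03. The distribution score was below 1 in 57 AB1 peaks, 14 of them AB1-only, so for nearly all peaks the score was the plain difference of the signals. No AB1 peak had a score under 1 or a ratio under 2, and the same held for AB2, so absence from a list means that these floors or other criteria of the caller were not met. AB2 signal at AB1-only positions was not analysed here. Nearly all AB1-only peaks (3628) had the usual AB1 width of 244 bp, and 22 were shorter. Positions are given on scaffolds of the genome build nemVec1, and the peaks were not assigned to genes.

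AB1-only peaks were weaker than shared peaks in the pull-down and had almost the same median input. Their ChIP signal ran from 1.34 to 32.52, with a median of 2.03 and a middle range (25th to 75th percentile) of 1.72 to 2.71. The median ChIP signal of shared AB1 peaks was 2.91, with a middle range of 2.23 to 4.30, so the AB1-only median was 0.698 times that of shared peaks. The middle ranges overlapped between 2.23 and 2.71. The control signal had a median of 0.69 in AB1-only and 0.67 in shared peaks, a ratio of 1.03. This near-equality of medians covered a difference in spread. The middle range of the control signal was 0.48 to 1.09 in AB1-only peaks and 0.51 to 0.88 in shared peaks, and the 95th percentile was 1.66 against 1.20. AB1-only peaks therefore reached both lower and higher input values than shared peaks did in the middle of their distribution.

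ChIP / Control had a median of 2.89 in AB1-only peaks, with a middle range of 2.39 to 3.77, and a median of 4.48 in shared peaks, with a middle range of 3.18 to 7.09. The score had a median of 1.35 against 2.19. The AB1-only medians were 0.645 and 0.616 times the shared ones for these measures. Many AB1-only peaks lay just above the floors of the list. A ratio below 2.5 was found in 1132 AB1-only peaks (31.0%) and in 923 shared peaks (8.70%). A ratio of at least 5 was found in 386 AB1-only peaks (10.6%) and in 4554 shared peaks (42.9%). Ratios of at least 10 were held by 24 AB1-only and 1375 shared peaks. A score of at least 2 was reached by 432 AB1-only peaks (11.8%) and by 6026 shared peaks (56.8%), and a score of at least 5 by 27 and 1496.

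**Figure D1:**
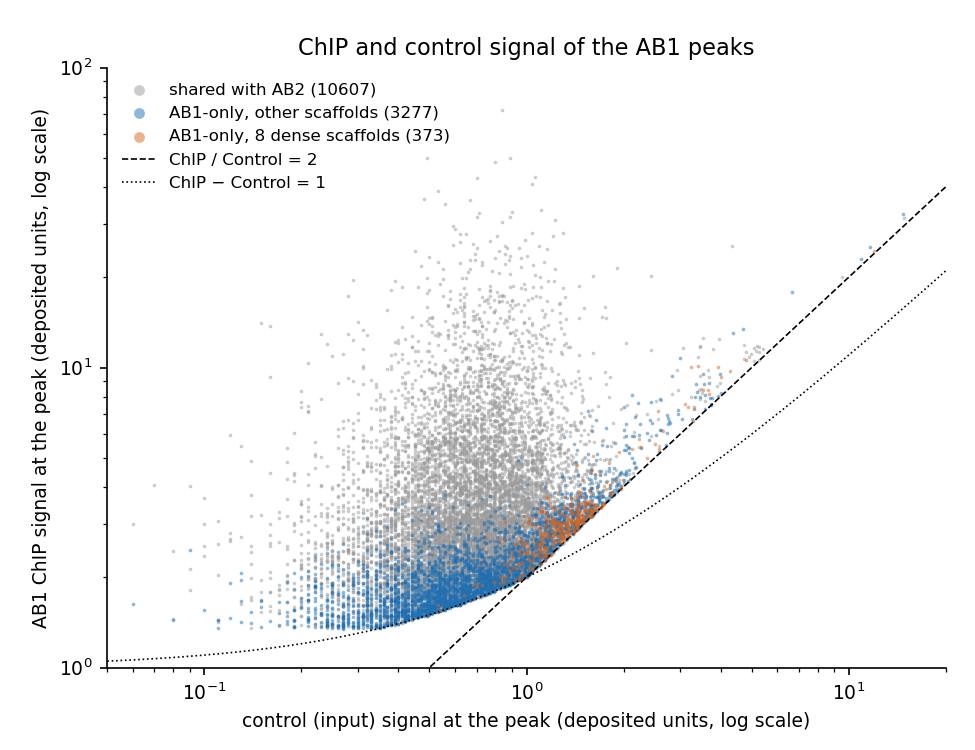
ChIP signal against control signal of the AB1 peaks, both on log axes in the units of the deposited list, one point per peak, with shared peaks, AB1-only peaks on the 8 scaffolds where over 75% of at least 20 AB1 peaks were AB1-only, and AB1-only peaks elsewhere drawn apart. Most AB1-only peaks lie along the lower edge of the cloud, near a ratio of 2 or a difference of 1, and a few reach control signals over 5.

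The share of AB1-only peaks fell steadily as the score rose. When the AB1 list was ranked by score and divided into deciles, 10 groups of equal size numbered from the lowest, 816 peaks of the lowest decile (57.3%) were AB1-only. The share was 48.2% in the next decile, then 40.6%, 36.9%, 29.7% and 22.1%, and it dropped to 10.9% in decile 7. In the top 3 deciles it was 4.49%, 4.00% and 1.82%, against 25.6% in the list as a whole. Of the 142 peaks in the top 1% by score, 1 was AB1-only. Ranked by ChIP / Control the shares ran in the same way, from 58.0% in the lowest decile to 1.75% in the highest.

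Ranked by control signal the pattern had another shape. AB1-only peaks were 31.4% of the decile with the lowest control signal and 16.1% of decile 7, and rose again to 54.6% of the decile with the highest, where the control signal was 1.16 or more. A control signal of at least 1 was found in 1061 AB1-only peaks (29.1%) and in 1572 shared peaks (14.8%). Of the AB1 peaks with a control signal of at least 1.5, 68.4% were AB1-only (327 against 151 shared peaks). In the list as a whole, AB1-only peaks were thus over-represented at both ends of the input scale and most of all at its upper end. The upper end did not hold on all scaffolds. Of the 1061 AB1-only peaks above, 325 lay on the 8 scaffolds where over 75% of at least 20 AB1 peaks were AB1-only. Another 435 lay on other scaffolds without an AB2 peak. On the remaining scaffolds, a control signal of at least 1 was held by 301 of 2633 AB1-only peaks (11.4%) and 1561 of 10586 shared peaks (14.7%). The scaffolds left out were picked by AB1-only content, since a scaffold without an AB2 peak can hold no shared peak. They held 21 of the 10607 shared peaks, so the lower AB1-only share on the rest is partly set by this cut.

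**Figure D2:**
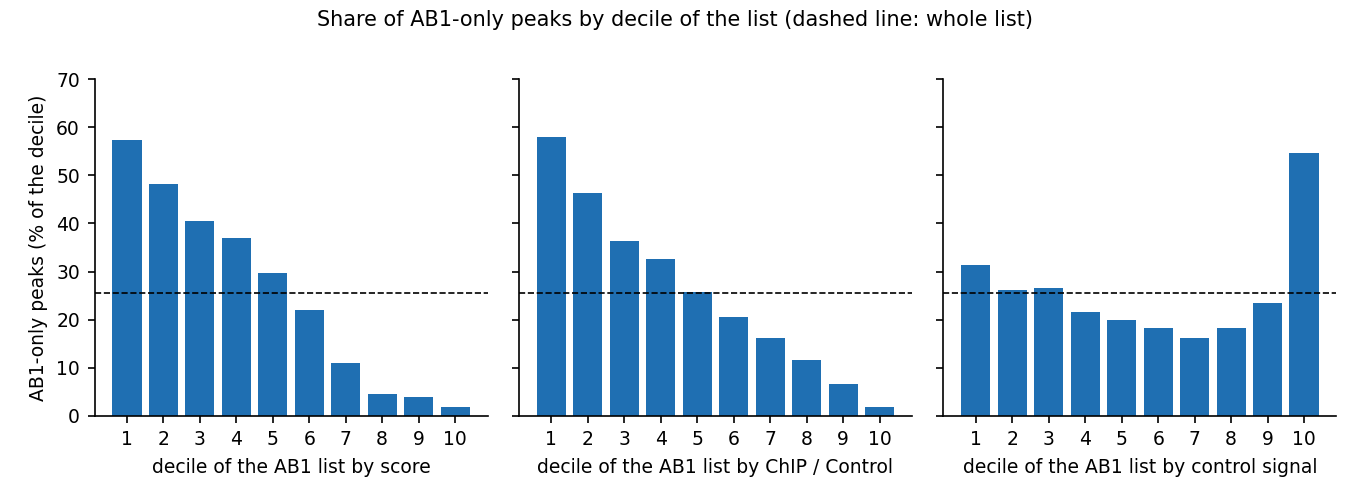
Share of AB1 peaks that were AB1-only in each decile of the AB1 list, ranked from left to right by score, by ChIP / Control and by control signal (decile 10 is the highest); the dashed line is the share in the whole list, 25.6%. The share falls from 57.3% to 1.82% with score and from 58.0% to 1.75% with ChIP / Control, while with control signal it is highest in the top decile (54.6%).

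At matched input the AB1-only peaks had the weaker pull-down throughout. In each decile by control signal the median ChIP signal of AB1-only peaks was below that of shared peaks. In the decile with the lowest control signal it was 1.57 against 2.41, in decile 5 it was 1.86 against 2.83, and in the top decile it was 3.28 against 4.07. The median ratio was 5.62 against 8.65 in the lowest of these deciles and 2.26 against 2.81 in the highest.

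At matched score the order of the control signals differed between the low and the high deciles. In the lowest 3 deciles by score, AB1-only peaks had slightly lower control signals and slightly higher ratios than shared peaks. In decile 1 the median control signal was 0.575 in AB1-only and 0.65 in shared peaks, and the median ratio was 2.83 against 2.64. In decile 3 these medians were 0.62 against 0.69 and 3.18 against 2.96. This order at low values depended on the measure matched. In deciles by ChIP signal the AB1-only control median was lower only in decile 1, at 0.42 against 0.44. It was higher in deciles 2 to 10, from 0.60 against 0.57 to 3.26 against 0.75. From decile 4 by score the order turned, and the gap in control signal widened with the score. Without the 8 scaffolds that were densest in AB1-only peaks the order turned at decile 5, where the median control signal was 0.80 against 0.66. That comparison kept the 644 AB1-only peaks on other scaffolds without an AB2 peak, whose median control signal was 1.22. In the complete list the median control signal of decile 5 was 1.08 in AB1-only peaks and 0.66 in shared peaks, with ratios of 2.64 and 3.67. In decile 7 it was 1.27 against 0.65, with ratios of 2.83 and 4.65. In decile 9 it was 2.61 against 0.68, with ratios of 2.48 and 7.16. Shared peaks thus kept a median control signal of 0.65 to 0.72 in every decile, while that of AB1-only peaks went from 0.575 in the lowest decile to 3.63 in the highest. Since the score is almost everywhere the difference between the signals, at a given score a higher control signal entails a lower ratio, and these are not separate observations.

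**Figure D3:**
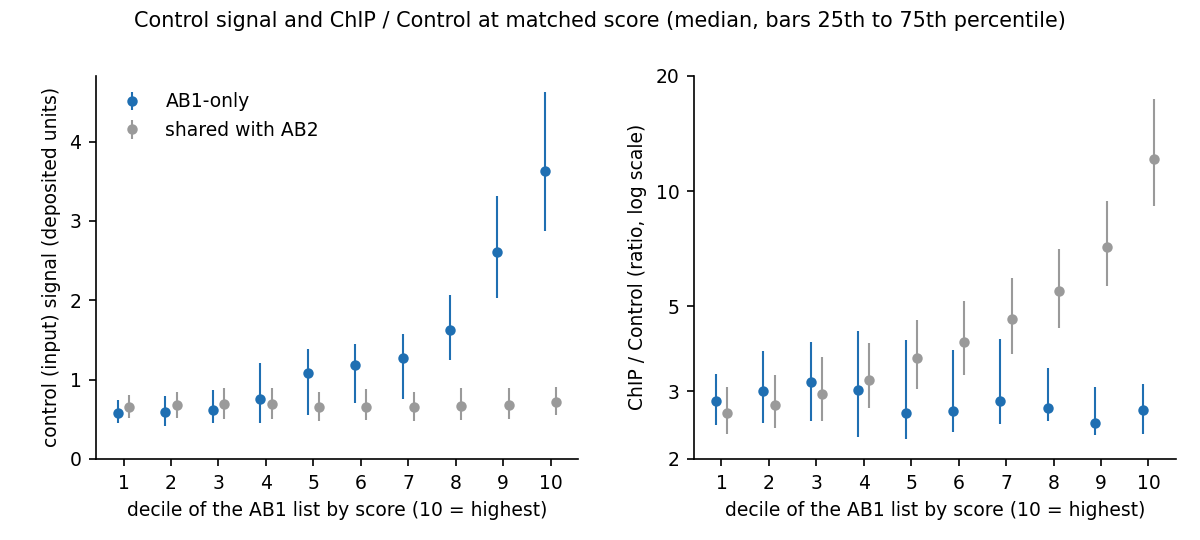
Median control signal (left, linear axis) and median ChIP / Control (right, log axis) of AB1-only and shared AB1 peaks within deciles of the AB1 list by score, with bars from the 25th to the 75th percentile of the peaks. Shared peaks keep a control signal near 0.7 and climb in ratio to 12.1, while AB1-only peaks climb in control signal to 3.63 and stay at a median ratio of 2.48 to 3.18.

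The highest-scoring AB1-only peaks all lay on high input. In the top 10% of the list by score there were 26 AB1-only peaks, and all 26 had a control signal above 1.38, the 95th percentile of the list. The same was true of 68 of the 1400 shared peaks there (4.86%). The ratios of these 26 peaks ran from 2.03 to 4.62, and 17 of them were below 3, against 21 of the 1400 shared peaks.

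The strongest AB1-only peak stood at 493 to 736 of scaffold 18733, where it was the only peak in either list. Its score was 17.78, rank 85 in the AB1 list, from a ChIP signal of 32.52 and a control signal of 14.74, a ratio of 2.21. The next, on scaffold 6573 at 6073 to 6316, had a score of 13.69, a ChIP signal of 25.3 and a control signal of 11.61, and its edge was 27 bp from an AB2 peak at 5888 to 6045. That AB2 peak, with a score of 3.52 and a ratio of 2.90 in its own list, was itself found with AB2 only. The peak on scaffold 664 at 34631 to 34874 had a score of 12.4 and a ratio of 2.03, close to the floor of 2. A neighbour on that scaffold, at 34912 to 35155, also ranked among the 10 highest, with a score of 6.74 and a ratio of 2.98.

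Several of the strongest peaks lay on scaffolds with few peaks, all close to the scaffold's start. Scaffold lengths were not used here. The peak on scaffold 9776 at 2366 to 2609 (score 12.16, ratio 2.12) was the only peak of either list on its scaffold, as was the peak on scaffold 5477 at 200 to 443 (score 7.73, ratio 3.58). Scaffold 1166 carried a peak at 15 to 258 with a score of 11.15 and a ratio of 2.67. On scaffold 9679, an overlapping pair stood at 1 to 211 and 138 to 381, with scores of 8.76 and 8.65 and ratios of 2.86 and 2.98. None of these 4 scaffolds had an AB2 peak. The other peak of these 10 was on scaffold 316 at 113348 to 113591, with a score of 6.81 and a ratio of 3.10. The 5 AB1-only peaks with the highest control signal, 6.68 to 14.74, were the same 5 as those with the highest score.

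The AB1-only peaks with the highest ratios were the opposite in kind, being small peaks over almost no input. The highest, on scaffold 180 at 412830 to 413073, had a ratio of 29.11 from a ChIP signal of 1.63 over a control signal of 0.06, and a score of 1.57. The next 4 had ratios of 15.37 to 26.39, and occupied 5765 to 6008 of scaffold 2569, 329830 to 330073 of scaffold 129, 2486 to 2729 of scaffold 1524 and 29836 to 30079 of scaffold 402. Their control signals were 0.08 to 0.13 and their ChIP signals 1.44 to 2.47. At so low an input a small error in the control signal moves the ratio greatly, and none of these 5 peaks had a score above 2.38. At the floor of the score stood peaks such as 553459 to 553702 of scaffold 1, 1676055 to 1676298 of scaffold 5 and 426753 to 426996 of scaffold 18, each with a score of 1 and ratios of 2.10, 2.16 and 3.01.

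AB1-only peaks lay further from AB2 peaks than shared peaks lay from other AB2 peaks. How much of this order the rule itself sets cannot be told. Shared peaks must by rule lie at an AB2 peak, and AB1-only peaks must not. Of the 3650, 727 (19.9%) were on a scaffold with no AB2 peak at all. For the other 2923 the median gap to the nearest AB2 peak was 3766 bp, with a middle range of 563.5 to 14460 bp and a largest gap of 165668 bp. An AB2 peak lay within 250 bp of 427 AB1-only peaks (11.7%), within 1 kb of 962 (26.4%) and within 10 kb of 1966 (53.9%). Measured from shared AB1 peaks to the nearest AB2 peak that did not overlap them, the median gap was 781 bp, 52.0% had one within 1 kb, 79.3% within 10 kb, and 3.64% had none on the scaffold.

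The distance to shared AB1 peaks gave the same order, which is not a separate observation, since each shared peak overlaps an AB2 peak. A shared AB1 peak was on the scaffold of 2853 AB1-only peaks, at a median gap of 6153 bp (middle range 837 to 22255 bp), and 797 (21.8%) had none. Shared peaks had another shared peak at a median gap of 1192 bp. Within 1 kb of a shared AB1 peak lay 763 AB1-only peaks (20.9%), whereas 45.1% of shared peaks had another shared peak that close. Another AB1-only peak was overlapped by 163 AB1-only peaks, and a shared AB1 peak by 45. These counts cannot be compared, because the rule bars AB1-only peaks from the AB2 peaks that shared peaks overlap. The nearest other AB1-only peak was within 1 kb of 992 AB1-only peaks (27.2%), while the median gap to it was 9672.5 bp, and 372 had none on their scaffold.

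**Figure D4:**
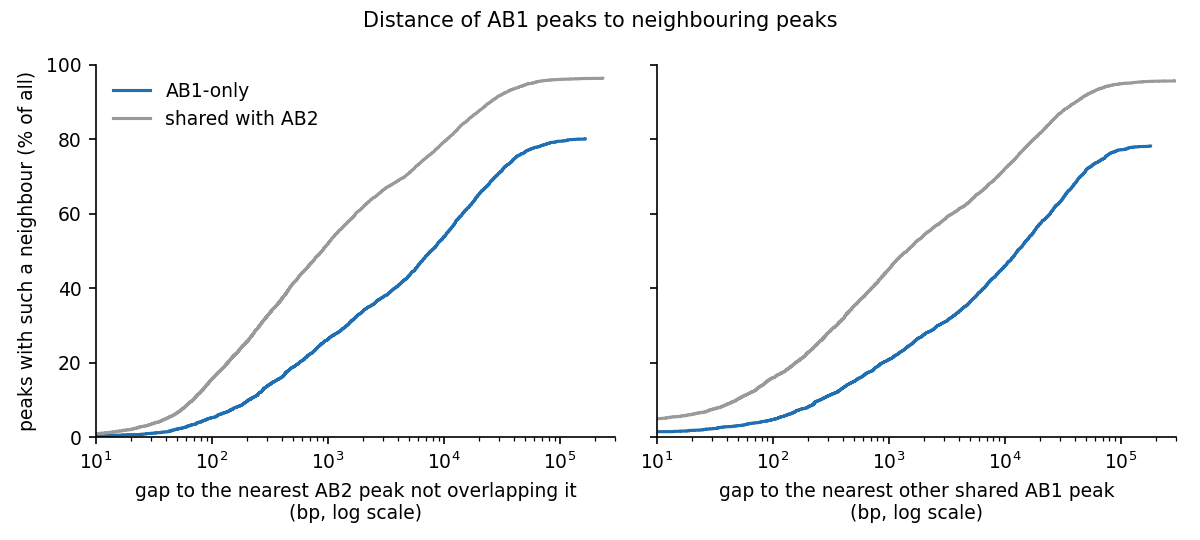
Share of all AB1-only and all shared AB1 peaks with a neighbour within a given gap, on a log axis from 10 bp; left, the nearest AB2 peak that does not overlap them, and right, the nearest other shared AB1 peak. The AB1-only curves lie below the shared curves at each gap drawn and end short of 100%, since 19.9% and 21.8% have no such neighbour on their scaffold. Shared peaks lie at AB2 peaks by rule, so the order of the curves is not independent of the rule.

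The median signals of AB1-only peaks changed little with distance from AB2 peaks, and differed more on scaffolds without an AB2 peak. The 962 peaks within 1 kb had a median score of 1.26, a ChIP signal of 1.92, a control signal of 0.61 and a ratio of 3.16. The 1004 peaks at 1 to 10 kb were almost the same, at 1.28, 1.92, 0.62 and 3.07. The 957 peaks further than 10 kb had medians of 1.35, 2.01, 0.68 and 2.89. The 727 peaks on scaffolds without an AB2 peak stood apart, with a median score of 1.64, a ChIP signal of 2.90, a control signal of 1.22 and a ratio of 2.42. A control signal of at least 1 was held by 11.1%, 18.1%, 28.4% and 68.8% of the peaks in these 4 classes. The ChIP signal without an AB2 peak on the scaffold was therefore close to the 2.91 of shared peaks, over a control signal of 1.22 against their 0.67.

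AB1-only peaks close to a shared peak mostly had the lower score of the pair, about as often as the score distributions by themselves give. Of the 763 AB1-only peaks within 1 kb of a shared AB1 peak, 646 (84.7%) had a lower score than that neighbour, with a median of 1.26 against 2.17 for the neighbour. The neighbour's median was close to the 2.19 of all shared peaks. When the same 763 peaks were set against every shared AB1 peak, the shared peak had the higher score in 82.6% of the pairs, and for all AB1-only peaks the share was 78.4%. The AB2 peak nearest to an AB1-only peak within 1 kb was itself AB2-only in 265 of 962 cases (27.5%), and within 250 bp in 128 of 427, beside 29.8% AB2-only peaks in the AB2 list. In the AB2 list these neighbours had a median score of 1.69, and all AB2 peaks 1.76.

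Peaks just on either side of the rule had similar median scores and control signals, while the median ratio was higher on the AB1-only side. The 27 AB1-only peaks with a gap of at most 20 bp to an AB2 peak had scores of 1.01 to 2.02 with a median of 1.42, a median control signal of 0.62 and a median ratio of 3.51. The 19 shared peaks with an overlap of at most 20 bp had a median score of 1.36, a median control signal of 0.65 and a median ratio of 2.91. One of these 19, on scaffold 436 at 96519 to 96762, reached a score of 16.77 with a ChIP signal of 31.58 over a control signal of 14.8, and overlapped an AB2 peak by 11 bp. It thus resembled the strongest AB1-only peaks in its values and was counted as shared. The smallest gap was 0 bp, on scaffold 353, where the AB1 peak ended at 194915 and the AB2 peak began on the next base, with scores of 1.10 and 1.24 in their lists. Gaps of 2 bp occurred on scaffold 66 at 858389 to 858632 and on scaffold 124 at 529248 to 529491. At the other extreme, the peak on scaffold 269 at 273251 to 273494 was 165668 bp from the nearest AB2 peak, with a score of 1.12 and a ratio of 4.02. The next largest gaps, 144090 and 143880 bp, belonged to an overlapping pair near the start of scaffold 316, at 167 to 410 and 377 to 620.

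AB1-only peaks were spread over 871 of the 1426 scaffolds with AB1 peaks, but not evenly. Among the 204 scaffolds with at least 20 AB1 peaks the median share of AB1-only peaks was 20.4%. On 8 of them, scaffolds 233, 310, 316, 357, 436, 554, 664 and 694, the share was 78.1% to 100%, and on each of the others it was at most 47.6%. This group of 8 was drawn up after the shares had been seen and serves only for description. It held 373 AB1-only peaks, 10.2% of all, beside 21 shared AB1 peaks (0.198% of all shared).

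On these 8 scaffolds the AB1-only peaks formed dense series over raised input. Their median distance from one AB1-only summit to the next was 548.5 to 1024 bp per scaffold, whereas on the other scaffolds with at least 20 AB1 peaks it was 4514 bp or more, with a median of 55124.5 bp. The median control signal of AB1-only peaks was 1.10 to 1.42 per scaffold, against a median of 0.59 over the others, although one of those reached 1.495. The 373 peaks had a median score of 1.68, a ChIP signal of 3.04, a control signal of 1.31 and a ratio of 2.28. A control signal of at least 1 was held by 325 of them (87.1%), and a ratio of at least 3 by 19 (5.09%).

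Scaffold 233 had the most AB1-only peaks, 94 of its 98 AB1 peaks, lying between 61843 and 207706. Their control signals were 0.89 to 4.79 with a median of 1.355, and their ratios were 2.01 to 3.31. The 4 shared AB1 peaks of this scaffold, between 154544 and 352679, had a median control signal of 0.625 and a median ratio of 4.725. Scaffold 316 carried 89 AB1-only of 95 AB1 peaks, the AB1-only ones lying between 167 and 219533, with a median control signal of 1.42. Its 6 shared peaks had a median control signal of 2.085, above that of the AB1-only peaks there, so the shared peaks did not have lower input on each of these scaffolds. On scaffold 310 all 62 AB1 peaks, from 33845 to 193506, were AB1-only, and on scaffold 694 all 21, from 7180 to 32079, with no AB2 peak on either. At the other end, scaffold 245 had 1 AB1-only peak among 26, scaffold 103 had 2 among 46 and scaffold 308 had 1 among 20.

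**Figure D5:**
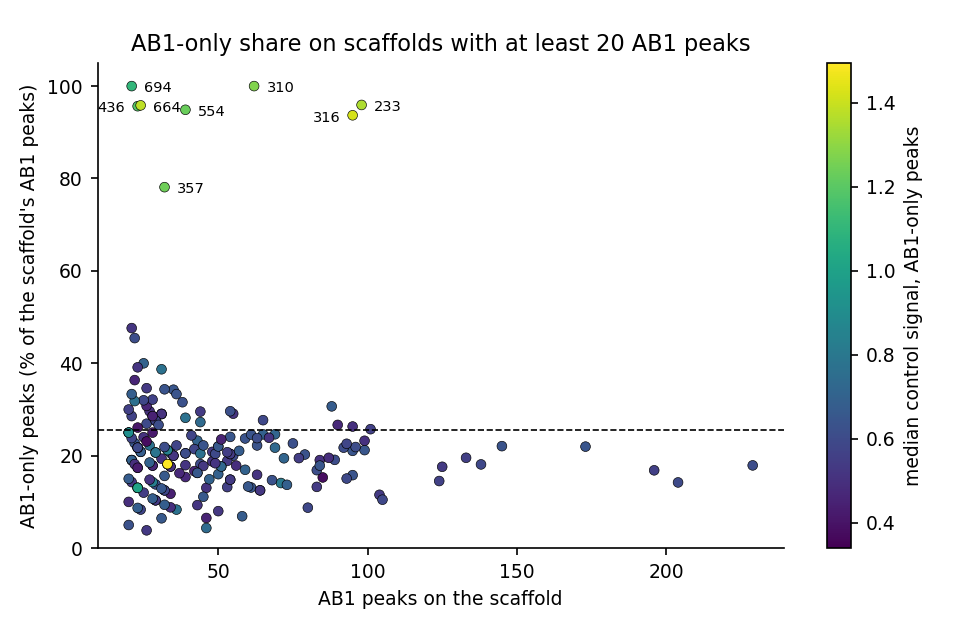
Share of AB1-only peaks against the number of AB1 peaks for the 204 scaffolds with at least 20 AB1 peaks, coloured by the median control signal of the AB1-only peaks; numbers name the 8 scaffolds above 75% and the dashed line is the share in the whole list, 25.6%. These 8 stand at 78.1% to 100%, the others at 47.6% or less, and the colours of the 8 lie between 1.10 and 1.42.

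Raised input was also seen on the other scaffolds without an AB2 peak. There, 644 AB1-only peaks on 325 scaffolds outside the group of 8 had a median score of 1.65, a control signal of 1.22 and a ratio of 2.46. Of the 327 scaffolds with AB1 but no AB2 peaks, 202 had a single AB1 peak and 27 had 5 or more. Over all scaffolds, AB1-only peaks were more often on a scaffold whose furthest peak lay near its start, which is a lower bound on scaffold length and is low wherever there are few peaks. Scaffolds on which the furthest peak of either list ended within 10 kb held 14.2% of AB1-only peaks and 4.50% of shared AB1 peaks, and those ending within 100 kb held 26.7% and 9.65%. In the AB2 list the shares within 10 kb were 7.52% for AB2-only and 4.38% for shared peaks.

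The remaining 2633 AB1-only peaks (72.1%), on scaffolds outside the group of 8 that also had AB2 peaks, had a lower rather than higher median input than shared peaks. Their median control signal was 0.59, against 0.67 in the shared peaks of such scaffolds, with overlapping middle ranges of 0.44 to 0.79 and 0.51 to 0.88. Their median score was 1.26 against 2.19 and their median ratio was 3.18 against 4.48. The scaffolds left out here were picked by AB1-only content, and held 373 and 644 AB1-only peaks but 21 shared ones. The lower AB1-only control median on the rest is therefore partly set by this cut. The AB1-only control median of the complete list, 0.69 beside 0.67, thus combined a larger group with a lower median than shared peaks and a smaller group with a much higher one. The ratio of AB1-only to shared control medians was 0.955 without the 8 scaffolds. The part played in AB1-only status by the input signal, or by how these scaffolds were assembled, was not tested.

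Most AB1-only peaks had no other AB1-only peak close by. When AB1-only summits within 1000 bp of each other were joined, the 3650 peaks gave 3094 groups, of which 2736 held a single AB1-only peak, 249 were pairs and 109 held 3 or more. Of these 109 groups, with 416 peaks, 44 were on the 8 dense scaffolds. The largest, 12 peaks within 5007 bp, was on scaffold 554 at 47395 to 52401, with a median control signal of 1.205, a median ratio of 2.25 and no score above 2.04. The next held 11 peaks on scaffold 310 at 178611 to 184126, with a median ratio of 2.20. The third held 8 on scaffold 554 at 38606 to 42094, where the highest score was 4.91.

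For comparison, the 4762 AB2-only peaks (29.8% of the AB2 list) were set against the 11243 shared AB2 peaks within their own list, since signals of separately called lists may differ in scale. AB2-only medians were 0.605 times the shared ones for score, 0.693 times for ChIP signal, 1.09 times for control signal and 0.605 times for ChIP / Control, close to the ratios of AB1-only peaks. At matched score the AB2-only peaks differed from the AB1-only peaks in the lowest deciles. In decile 1 by score the median control signal was 0.50 in AB2-only and 0.46 in shared AB2 peaks, and in decile 3 it was 0.49 against 0.44, whereas AB1-only peaks had the lower control signal in these deciles of their list. In decile 5 it was 0.48 against 0.44, and in the top decile it was 7.05 against 0.50, with 51 AB2-only peaks there. On the 8 scaffolds dense in AB1-only peaks there were 6 AB2-only and 22 shared AB2 peaks.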

How the data were processed

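Peak lists of the AB1 and AB2 ChIP-seq samples were used. Per the file headers, each peak has a score, a tag distribution score, a ChIP signal, a control signal and a fold enrichment (ratio), as deposited by the authors for each antibody by itself. The sources used here name neither the scaling of the signal values nor the peak caller, and the deposited FDR column was left out because its scale is not stated. BWA is named in the submitters' processing notes, and nemVec1 with the lists. The control signal was taken to come from the 1 input library listed.

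Starts were read as 0-based and are printed as 1-based. Overlap meant at least 1 bp on the same scaffold, and gaps are the bases between intervals. Percentiles, deciles and distances were computed with Python 3.11.15, numpy 2.4.6 and pandas 2.3.3, and the overlap and distance steps were tested on simulated intervals. Peaks named in the text are the 10 highest scores, the 5 highest ratios, the 5 highest control signals, the 3 lowest scores, the 3 smallest and 3 largest gaps to AB2, the 3 largest groups, and the scaffolds with the most peaks and the extreme shares. The 8 dense scaffolds, the shared peak on scaffold 436 and the AB2 neighbour on scaffold 6573 were named after their values were seen. Peaks and lists were chosen with earlier results of these data known. Alternatives covered the overlap rule, score minimums, scaffolds, widths, the distance measure and the joining distance.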

Additional observations from a re-analysis of the deposited data

How the results depend on the processing

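Over 26 alternatives, 31 values of the main results moved little, 60 moved further and 16 ratios crossed 1. The number of AB1-only peaks, 3650, was 2688 to 3890 under other overlap rules, but 7215 when AB2 peaks under the median score were left out, 627 among AB1 peaks of at least the median score and 26 in the top 10% by score. Counting AB2 peaks within 1000 bp as shared gave ratios of AB1-only to shared medians of 0.681 (score), 0.755 (ChIP) and 1.10 (control). With AB2 peaks of at least the median score the ratios were 0.497, 0.590, 0.957 and, for ChIP / Control, 0.576. With AB1 peaks of at least the median score they were 0.695, 0.896, 1.97 and 0.449. On scaffolds with peaks in both lists, a cut that by rule removes no shared peak, they were 0.589, 0.670, 0.940 and 0.681. Without the 8 dense scaffolds, an alternative chosen after seeing the data, they were 0.598, 0.677, 0.955 and 0.674. The control ratio of 1.03 is thus on either side of 1 depending on the peaks taken, and the ratios of score and ChIP / Control stayed below 1 in these alternatives.

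Within deciles by score from 1 to 10, the ChIP ratios were 0.953, 0.960, 0.966, 1.02, 1.16, 1.18, 1.19, 1.22, 1.36 and 1.17. The control ratios were 0.885, 0.868, 0.899, 1.09, 1.64, 1.79, 1.95, 2.43, 3.84 and 5.03. The ChIP / Control ratios were 1.07, 1.08, 1.07, 0.938, 0.719, 0.663, 0.609, 0.495, 0.346 and 0.221. Without the dense scaffolds the ratio turned between deciles 4 and 5, with ChIP / Control medians of 3.28 against 3.22 and 3.23 against 3.68.

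For distances, AB2 peaks of at least the median score gave medians of 7987.5 bp to AB2 and 8835 bp to shared peaks, with 21.2% and 45.7% within 1 and 10 kb of AB2 and 44.1% within 10 kb of a shared peak. AB1 peaks of at least the median score gave 6202.5 and 12564 bp, with 15.9% and 35.7% near AB2 and 9.73% and 24.9% near shared peaks. Distances between summits gave 23.9% and 18.5% within 1 kb. Scaffolds with a peak past 100 kb gave 32.6% and 65.3% near AB2, and 25.9% and 56.6% near shared peaks. The nearest AB1-only peak in place of the nearest shared one gave 9672.5 bp and 27.2% within 1 kb. Without the dense scaffolds the medians were 2742 and 5091 bp, with 29.0% and 57.1% near AB2 and 23.0% and 48.7% near shared peaks. Groups numbered 3290 when joined at 500 bp and 2676 at 5000 bp, where the largest held 76 peaks on scaffold 233. The causes of these movements were not tested. Depth was unknown, so no counting error could be given. No paired analysis was possible because each antibody had 1 library and no result comes from a test.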

Other observations

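The 51 AB2-only peaks in the top decile of the AB2 list by score lay on 38 scaffolds. Their median ratio was 2.26, against 16.2 in the shared AB2 peaks of that decile.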
